A study of Homo sapiens with 12 samples.

Results

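EGR1 and FOS are 2 of the 8579 genes in the deposited count table of A375 cells, and were followed across all 12 libraries, by treatment group and by replicate number. They were chosen by their CPM values in these same libraries, higher in each treated group than in UNTREATED and uneven by number, so their levels and differences between groups and between numbers are given here as a description, with no test. A375 is an established human melanoma cell line, labelled BRAF-V600E, an activating mutation that all 4 groups carry. Cells were kept for 72 h with SEL201 at 2.5 µM (the SEL201 group), with OTX015 at 50 nM (the OTX015 group), with both agents (COMBO), or with DMSO alone, the solvent (UNTREATED). SEL201 is an inhibitor of the kinases MNK1 and MNK2, and OTX015 an inhibitor of BET proteins, whose bromodomains bind acetylated histones. Each group has 3 libraries, numbered N1 to N3 in the labels, made from poly(A) RNA and sequenced as paired reads of 150 bases. The labels do not say what a number stands for or whether replicates were separate cultures, so the spread between libraries may be technical, and 1 cell line at 1 time point is all that was sampled.

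EGR1 encodes a zinc finger transcription factor that binds GC-rich DNA. FOS encodes a leucine zipper protein that pairs with JUN family proteins to form the transcription factor AP-1. Both are immediate early genes: growth factors, serum and stress switch them on within minutes without new protein synthesis, and their mRNAs are short-lived. The kinase ERK, which mutant BRAF keeps active in melanoma, phosphorylates ternary complex factors that sit with serum response factor (SRF) on CArG boxes of such promoters, and kinases downstream of ERK and p38 phosphorylate CREB on cyclic AMP response elements. The MNK kinases, whose substrate is the translation factor eIF4E, are also activated by ERK and p38.

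The 250 bases before the start of EGR1 and FOS are shown because elements through which these signals act lie near such starts, and those of their paralogues EGR2 and FOSB for comparison. The CArG box known for FOS lies farther upstream than this window. They are RefSeq sequences of GRCh38.p14, read 5′ to 3′ on the strand of the gene: EGR1 at chr5:138465229-138465478 (plus strand), FOS at chr14:75278578-75278827 (plus strand), the window of EGR2 with a CArG box, which is 1 of its 3 start sites, at chr10:62816367-62816616 (minus strand), and FOSB at chr19:45467746-45467995 (plus strand). Capitals mark CArG boxes, the sites SRF binds, and the core TGACG of a cyclic AMP response element on either strand, which reads CGTCA where it lies on the opposite strand.
EGR1: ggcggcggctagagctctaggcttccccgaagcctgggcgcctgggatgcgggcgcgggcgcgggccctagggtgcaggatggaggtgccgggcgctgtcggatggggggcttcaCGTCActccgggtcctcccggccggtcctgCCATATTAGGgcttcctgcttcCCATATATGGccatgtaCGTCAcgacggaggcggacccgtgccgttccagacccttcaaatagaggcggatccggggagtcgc
FOS: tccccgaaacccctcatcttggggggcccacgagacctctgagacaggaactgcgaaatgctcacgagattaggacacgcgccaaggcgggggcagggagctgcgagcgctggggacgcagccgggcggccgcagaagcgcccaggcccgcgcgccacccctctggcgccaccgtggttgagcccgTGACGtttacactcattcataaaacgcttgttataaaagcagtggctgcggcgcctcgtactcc
EGR2: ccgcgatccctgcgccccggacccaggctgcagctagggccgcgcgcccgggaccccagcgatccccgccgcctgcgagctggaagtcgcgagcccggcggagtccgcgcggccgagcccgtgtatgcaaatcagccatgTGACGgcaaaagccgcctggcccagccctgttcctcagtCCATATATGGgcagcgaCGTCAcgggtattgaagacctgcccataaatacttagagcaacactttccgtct
FOSB: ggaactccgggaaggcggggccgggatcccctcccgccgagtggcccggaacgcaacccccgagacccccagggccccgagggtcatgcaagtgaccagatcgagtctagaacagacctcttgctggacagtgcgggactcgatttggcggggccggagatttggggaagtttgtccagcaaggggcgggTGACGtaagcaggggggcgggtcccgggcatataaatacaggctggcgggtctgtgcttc
The EGR1 window held 2 CArG boxes, at bases 105 to 96 and 83 to 74 before the start, and 2 TGACG cores on the opposite strand, at bases 135 to 131 and 66 to 62. It also held 1 match to GCGNGGGCG, a loose form of the site EGR proteins bind that allows any base at N, at bases 198 to 190. The match reads GCGCGGGCG. The FOS window held 1 TGACG core, at bases 64 to 60, 1 GGGCGG box at bases 127 to 122 and a TATAAA box at bases 33 to 28, and no CArG box within these 250 bases. The EGR2 window held 1 CArG box and 2 TGACG cores, and the FOSB window 1 TGACG core at bases 60 to 56 and a TATAAA box at bases 30 to 25. Of 35116 promoter windows of this length in the RefSeq table, 1.16% held a CArG box, 21.2% TGACG on either strand, 10.7% TATAAA, 42.6% GGGCGG and 8.42% GCGNGGGCG. The core TGACG is also part of the full palindrome TGACGTCA, which 1.65% of windows held and neither EGR1 nor FOS did. These matches describe the letters only, and no binding was measured here.

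EGR1 mRNA was lowest in UNTREATED, higher with either single agent and highest in COMBO. In CPM, counts scaled to a common library total over the genes of the table, EGR1 stood at 178, 166 and 176 in UNTREATED N1, N2 and N3. It stood at 334, 406 and 306 in SEL201, and at 445, 446 and 374 in OTX015. In COMBO it reached 590, 667 and 527. Every treated library was above every UNTREATED library, and every COMBO library was above every library of the other groups, while the SEL201 and OTX015 libraries overlapped. The share of all genes with groups apart in this way was not computed, and EGR1 was chosen on these values. The EGR1 mean was 173 ± 6.10 CPM for UNTREATED, 349 ± 51.2 for SEL201, 422 ± 41.5 for OTX015 and 595 ± 69.9 for COMBO (SD, n = 3 each). Behind these levels stood 3548 to 14426 counts a library. EGR1 thus ordered as UNTREATED, SEL201, OTX015, COMBO, with the middle neighbours not apart beyond their spread.

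FOS followed the same order at a lower level. UNTREATED libraries N1, N2 and N3 had 29.6, 32.9 and 29.7 CPM of FOS, and SEL201 libraries had 49.9, 52.9 and 43.3. OTX015 libraries had 69.4, 62.2 and 69.5 CPM, and COMBO libraries 101, 104 and 89.1. No FOS values overlapped between any 2 groups, including SEL201 and OTX015, which overlapped for EGR1. The share of all genes with groups apart in this way was not computed, and FOS was chosen on these values. The FOS mean was 30.7 ± 1.86 CPM for UNTREATED, 48.7 ± 4.93 for SEL201, 67.0 ± 4.21 for OTX015 and 97.9 ± 7.86 for COMBO (SD, n = 3 each), from 598 to 2334 counts a library. In this bulk RNA, more cells with the transcript and more transcript per cell cannot be told apart.

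**Figure D1:**
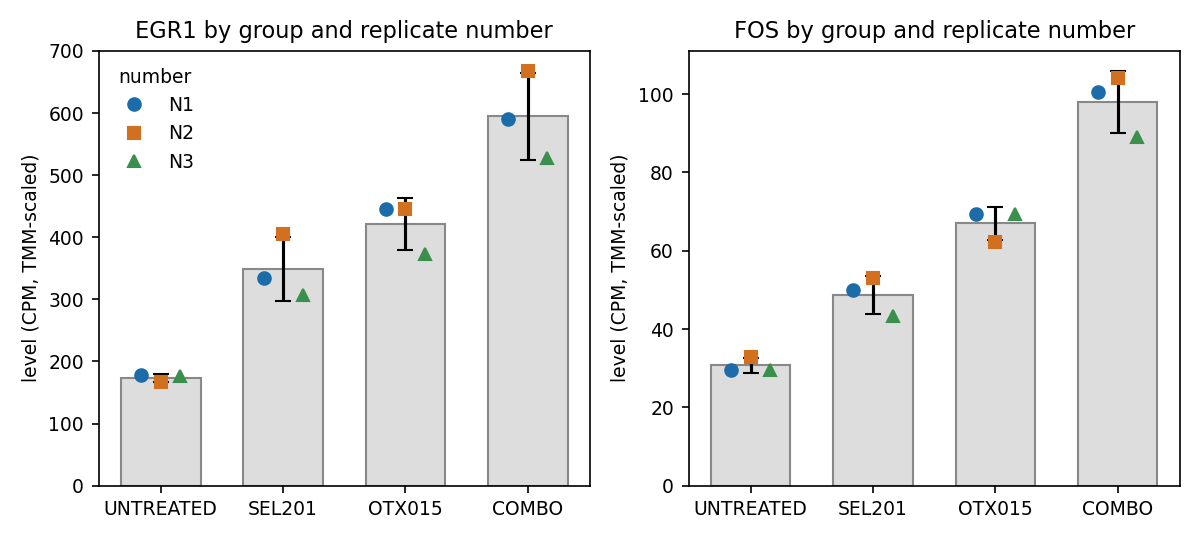
EGR1 and FOS in CPM for each of the 12 libraries, by treatment group, with the replicate number marked and the group mean drawn. For EGR1 the COMBO libraries lie between 527 and 667 and the UNTREATED libraries between 166 and 178; for FOS the 4 groups do not overlap.

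On the log2 scale EGR1 was 1.01 (SE 0.10) higher with SEL201 than in UNTREATED, a fold of 2.01. With OTX015 the EGR1 difference was 1.28 (SE 0.10), a fold of 2.43, and with COMBO 1.78 (SE 0.10), a fold of 3.43. For FOS the log2 differences from UNTREATED were 0.67 (SE 0.09) with SEL201, 1.12 (SE 0.09) with OTX015 and 1.67 (SE 0.09) with COMBO, which are folds of 1.59, 2.18 and 3.19. EGR1 therefore differed more than FOS with SEL201, and the 2 genes were closer with COMBO. Ranked from the largest increase over all 8579 genes, EGR1 was in place 12 with SEL201, 30 with OTX015 and 25 with COMBO. FOS was in place 61, 56 and 35. The choice of both genes for higher values in treated groups favours these places. These 3 comparisons share the UNTREATED libraries, so a low or high control library would enter each of them.

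Both transcripts were higher in COMBO than with either single agent. EGR1 was 0.77 (SE 0.10) log2 higher in COMBO than in SEL201 and 0.50 (SE 0.10) higher than in OTX015, folds of 1.71 and 1.41. FOS was 1.01 (SE 0.09) higher than in SEL201 and 0.55 (SE 0.09) higher than in OTX015, folds of 2.01 and 1.46. The step on adding OTX015 to SEL201 was thus larger for FOS, and the step on adding SEL201 to OTX015 was alike in size for both genes. In place among all genes, EGR1 was 106 and FOS 39 for COMBO over SEL201, and 70 and 47 for COMBO over OTX015.

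The COMBO level of EGR1 lay below the product of the single-agent folds. The interaction, which is the COMBO difference minus the sum of both single-agent differences on the log2 scale, was -0.51 (SE 0.14) for EGR1 and -0.12 (SE 0.13) for FOS. Within each number the COMBO fold of EGR1 was 3.32, 4.01 and 3.0 for N1, N2 and N3, against products of 4.70, 6.53 and 3.69. COMBO was below the product at all 3 numbers. For FOS the COMBO folds were 3.40, 3.17 and 3.0, against products of 3.96, 3.05 and 3.42, so that COMBO was below the product at N1 and N3 and above it at N2. From the lowest interaction upward, EGR1 was in place 57 of 8579 genes and FOS in place 1564.

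Per kilobase of exon, which allows a rough comparison of levels between genes, EGR1 was the more abundant transcript in every library. The length used is the union of all annotated exons of a gene, which can exceed the length of its main mRNA. The levels, ratios and order of genes given here depend on this choice, and other lengths were not tried. With exon lengths of 3138 bases for EGR1 and 3238 for FOS, EGR1 stood at 55.3, 111, 134 and 190 CPM per kilobase in UNTREATED, SEL201, OTX015 and COMBO, and FOS at 9.48, 15, 20.7 and 30.2. The ratio of EGR1 to FOS per kilobase was 5.23 to 6.20 in UNTREATED and 6.91 to 7.91 in SEL201. In OTX015 it was 5.55 to 7.41 and in COMBO 6.05 to 6.61. The SEL201 ratios were all above those of UNTREATED and COMBO and overlapped with OTX015. Of 14 other AP-1 and EGR family genes listed, the table holds 9. It holds no gene with a mean count above 9159, so more abundant family genes may be missing. Among those it holds, in UNTREATED, FOSL2 had 67.2 CPM per kilobase, JUN 52.5, EGR3 34.7 and FOSB 34.2. EGR1 was thus near JUN, and FOS was below all of these. In COMBO, EGR1 at 190 was above JUN at 49.7, EGR3 at 47.7 and FOSL2 at 40.3, while FOS at 30.2 was below FOSB at 37.3.

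By replicate number, EGR1 was lowest at N3 in each treated group but not in UNTREATED, where N2 was lowest. The ratio of EGR1 at N3 to N2 was 0.755 in SEL201, 0.837 in OTX015 and 0.791 in COMBO, against 1.06 in UNTREATED. From N1 to N2 it was 1.21 in SEL201, 1.0 in OTX015 and 1.13 in COMBO, against 0.936 in UNTREATED. As a result the fold of EGR1 over the UNTREATED library of its number ran highest at N2: 2.44 with SEL201, 2.68 with OTX015 and 4.01 with COMBO, compared with 1.74, 2.12 and 3.0 at N3. Across all groups, with the group held constant, EGR1 differed by 0.10 (SE 0.05) on the log2 scale between N2 and N1, by -0.14 (SE 0.05) between N3 and N1 and by -0.24 (SE 0.05) between N3 and N2.

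FOS was less tied to the number. It was lowest at N3 in SEL201 and COMBO, lowest at N2 in OTX015 and lowest at N1 in UNTREATED. With the group held constant, FOS differed by 0.03 (SE 0.06) between N2 and N1, by -0.09 (SE 0.06) between N3 and N1 and by -0.12 (SE 0.06) between N3 and N2 on the log2 scale. Of the variance of log2 CPM over the 12 libraries, the treatment group held 96.3% for EGR1 and 97.8% for FOS, against a median of 66.5% over all genes, a share that the choice of these genes favours. The number held 2.05% for EGR1 and 0.735% for FOS. Within groups, the number accounted for 55.8% of the remaining sum of squares of EGR1 and 32.7% of that of FOS, and the median over all genes was 48.8%.

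**Figure D2:**
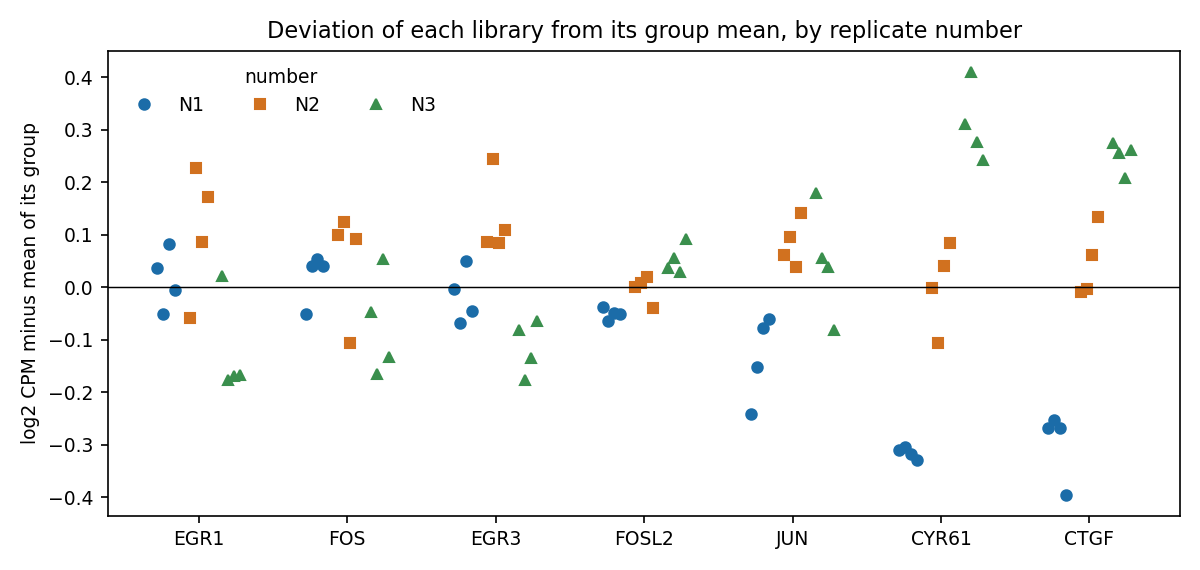
Deviation of each library's log2 CPM from the mean of its group, by replicate number, for EGR1, FOS and related genes; each point is 1 library. The N3 points of EGR1 average -0.12 and its N2 points 0.11, and for FOS these averages are -0.07 and 0.05.

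Over the 12 libraries EGR1 and FOS had a Pearson correlation of 0.968 and a Spearman correlation of 0.923 in log2 CPM. The libraries share the 4 treatment groups, and with group means subtracted these fell to 0.50 and 0.40 (n = 12, a description). FOS was only in place 54 among the genes whose pattern was most like EGR1, and EGR1 in place 97 for FOS. The 6 genes nearest to EGR1 by Pearson correlation over the 12 libraries were ATP1B2 (0.991), PCBP3 (0.986), CORO1A (0.986), CYB561D1 (0.984), ZNF837 (0.984) and TWIST1 (0.983). ATP1B2, a subunit of the sodium-potassium pump, had mean levels of 4.05, 8.78, 11.1 and 17.5 CPM in UNTREATED, SEL201, OTX015 and COMBO. TWIST1, a transcription factor of mesenchymal cells, went from 133 through 181 and 194 to 210 CPM, a smaller fold than that of EGR1. Among those nearest to FOS were ALDH4A1 (0.992), TUBB3 (0.991), TAOK3 (0.991), EMC10 (0.989) and PDE6D (0.987). By Spearman correlation the places differed: 12 to 88.5 for the 6 genes named for EGR1, and 5.5 (TAOK3) to 249.5 (EMC10) for those named for FOS.

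Once group means were subtracted, none of these named genes was among the nearest 6. The nearest to EGR1 were then NUP210 (0.975), TMEM8B (0.971), TSKU (0.961), SPRED3 (0.960), PLD2 (0.959) and KCTD12 (0.956), and FOS was in place 1627. The nearest to FOS were NPRL2 (0.924), PKNOX1 (0.909), PIGB (0.905), TCTA (0.892), DERA (0.889) and FBXO34 (0.889), and EGR1 was in place 1038. These places are by Pearson correlation. By Spearman correlation the named genes ran from place 1 to 20.5 for EGR1 and from 2 to 90.5 for FOS.

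EGR1 and FOS were set beside 34 other immediate early genes that the table holds of 59 listed: 9 of the AP-1 and EGR families and 25 others. These were tested with edgeR over all 8579 genes, with Benjamini-Hochberg adjustment and a threshold of 0.05 on the adjusted p. With COMBO, 13 of the 34 rose and 11 fell, or 70.6%, where 57.8% of all genes passed (28.3% rose and 29.6% fell). With OTX015, 11 rose and 10 fell, against 48% of all genes (23.3% and 24.7%), and with SEL201, 5 rose and 6 fell, against 21.2% (10.1% and 11.1%). With the replicate number as a block the SEL201 counts were 8 and 11, against 37.1% of all genes. The median log2 difference of the 34 was -0.04 with SEL201, 0.01 with OTX015 and -0.01 with COMBO, and over all genes the median rounded to 0 in each. EGR1 and FOS lay far above the list's median, a place that their choice for higher values in each treated group favours.

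Of the 9 AP-1 and EGR family genes, 2 rose with COMBO, 4 fell and 3 did not pass. That is 66.7% called, beside 57.8% of all genes (28.3% rose and 29.6% fell). EGR3, a paralogue of EGR1, rose by 0.46 log2 (SE 0.09, edgeR adjusted p = 0.000711) with COMBO and by 0.33 with OTX015 (adjusted p = 0.0103), and with SEL201 its difference was 0.12 (adjusted p = 0.43). EGR2 rose by 0.45 with SEL201 (adjusted p = 0.0344), a call lost without any of 5 single libraries (SEL201 N1 or N2, or any UNTREATED library, edgeR adjusted p up to 0.167), and had -0.07 with COMBO (adjusted p = 0.71). FOSB, a paralogue of FOS, rose by 0.23 with OTX015 (adjusted p = 0.00103) and by 0.13 with COMBO (adjusted p = 0.0357). The COMBO call of FOSB was lost without any of 5 single libraries (any COMBO library, UNTREATED N1 or N2, edgeR adjusted p up to 0.117). None of these paralogues came near the 1.78 of EGR1 or the 1.67 of FOS, which were chosen for their higher values in treated groups.

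FOSL2, another partner of JUN proteins in AP-1, fell by 0.43, 0.55 and 0.74 log2 with SEL201, OTX015 and COMBO (edgeR adjusted p 2.68e-05, 4.33e-07 and 1.16e-08), the reverse of FOS. It stood at 469, 481 and 493 CPM in UNTREATED and 278, 280 and 307 in COMBO. BATF2, an AP-1 family factor of the BATF group, fell by 0.67, 0.93 and 1.52 (adjusted p 0.00119, 2.21e-05 and 1.36e-07). JDP2, a repressor that binds AP-1 sites, fell by 0.95 with COMBO (adjusted p = 7.58e-05) and BATF3 by 0.53 (adjusted p = 0.000192). JUN, the main partner of FOS, had -0.08 with COMBO (adjusted p = 0.51). Its differences of -0.28 with SEL201 and -0.23 with OTX015 did not pass (adjusted p = 0.054 and 0.062) but did with the replicate block (edgeR adjusted p = 0.00013 and 0.00058). ATF3 did not pass in any of the 3.

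**Figure D3:**
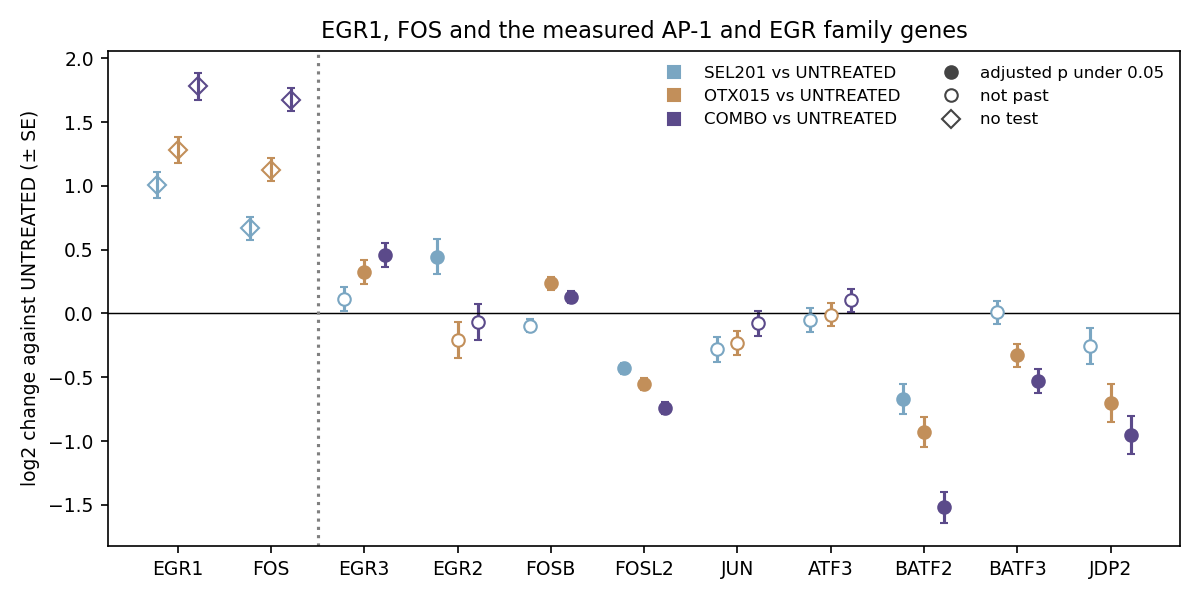
log2 difference from UNTREATED with its SE for EGR1, FOS and the 9 measured AP-1 and EGR family genes, with SEL201, OTX015 and COMBO; filled points passed the adjusted p threshold, open points did not, and diamonds are EGR1 and FOS, which were not tested. With COMBO, EGR1 at 1.78 and FOS at 1.67 lie above EGR3 at 0.46, and BATF2 at -1.52 lies lowest.

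Among the other immediate early genes, those nearest to EGR1 and FOS in size with COMBO were ARC, HBEGF, SERTAD1, NFIL3 and ZFP36. ARC, a synaptic gene of the immediate early class, rose by 1.06 log2 (SE 0.08, edgeR adjusted p = 3.77e-08), from 86.5 ± 4.06 CPM in UNTREATED to 181 ± 5.17 in COMBO (SD, n = 3 each). HBEGF, a ligand of the EGF receptor, rose by 0.81, and ZFP36, which marks AU-rich mRNAs for decay, by 0.71 (edgeR adjusted p = 1.05e-06 and 7.25e-07). SERTAD1 and the repressor NFIL3 rose by 0.80 and 0.74. ARC, KLF4, NFIL3 and SERTAD1 rose with each of the 3 treatments, as EGR1 and FOS were higher in each, although with SEL201 the call of NFIL3 was lost without any of the same 5 libraries as for EGR2 (edgeR adjusted p up to 0.124) and that of SERTAD1 without SEL201 N1, UNTREATED N1 or UNTREATED N2 (edgeR adjusted p up to 0.0842). SOCS3, an inhibitor of cytokine signalling, fell by 0.99 with COMBO, DUSP2, a phosphatase of ERK, by 0.92, and MAFF by 0.58. BATF2, DUSP2, FOSL2, MAFF and SOCS3 fell with each treatment, opposite to EGR1 and FOS, and the SEL201 call of MAFF was lost without any of 5 libraries (SEL201 N1 or N2, or any UNTREATED library, edgeR adjusted p up to 0.137). The share of all genes that rose or fell with each of the 3 treatments was not computed. The 3 comparisons share the UNTREATED libraries, so whether these lists are long for their size cannot be said.

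**Figure D4:**
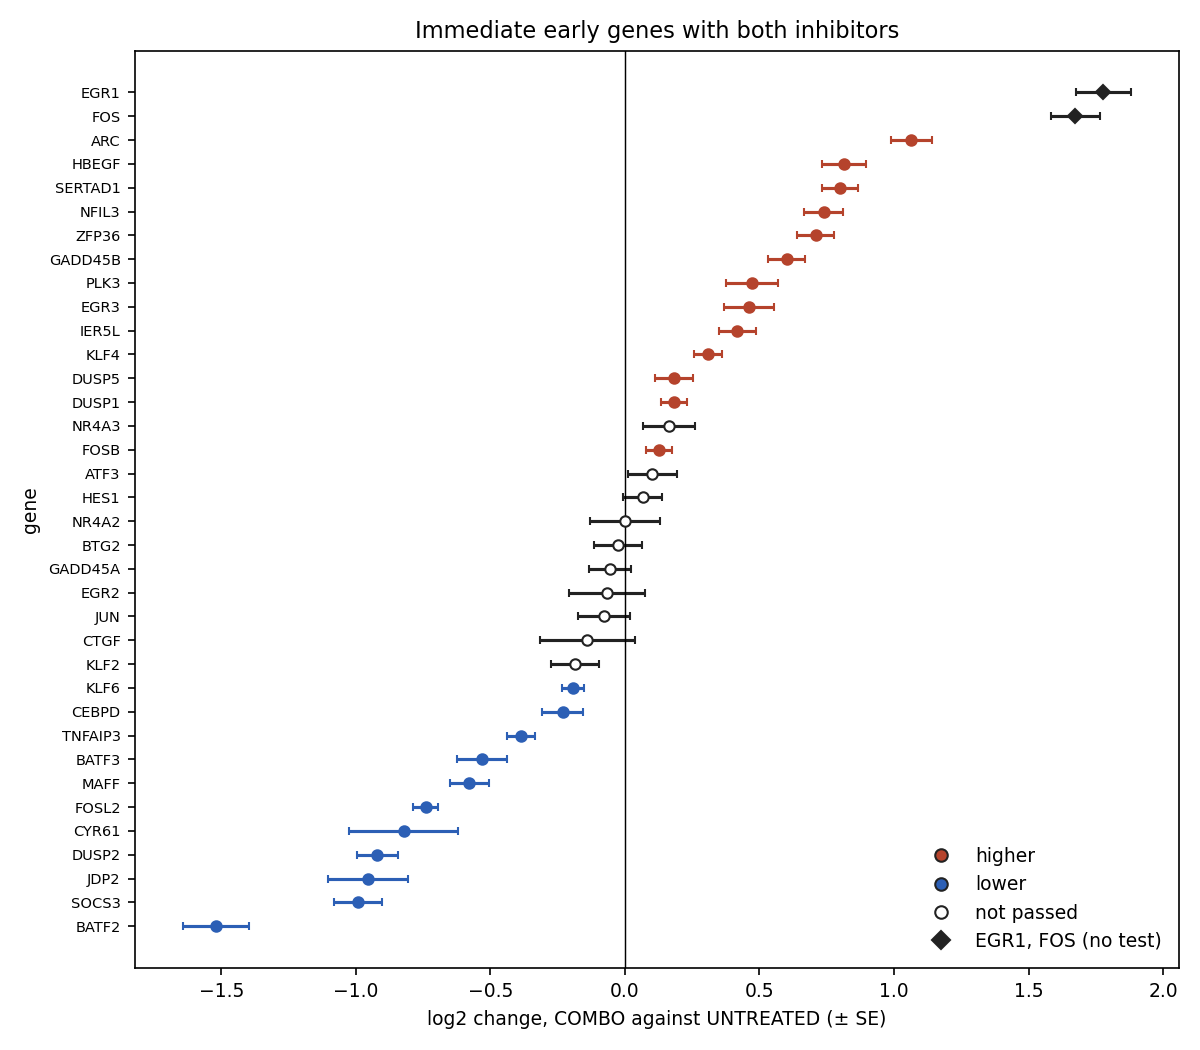
log2 difference of COMBO from UNTREATED with its SE for EGR1, FOS and the 34 other measured immediate early genes, coloured by whether each rose, fell or did not pass. EGR1 at 1.78 and FOS at 1.67, chosen for their higher values in treated groups, lie at the top, followed by ARC at 1.06, and 11 genes fell.

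COMBO also differed from the single agents in these genes. Against SEL201, 12 of the 34 rose and 10 fell, beside 40.1% of all genes (18.8% and 21.2%). Against OTX015, ZFP36 rose by 0.32 and BATF2, DUSP2 and FOSL2 fell, which is 4 of 34, beside 6.91% of all genes (2.9% and 4.01%). Without 1 library (edgeR adjusted p up to 0.106), these calls were lost for ZFP36 (COMBO N3 or OTX015 N1), BATF2 (COMBO N1 or OTX015 N1), DUSP2 (COMBO N2 or N3, OTX015 N1 or N3) and FOSL2 (COMBO N1 or N2, OTX015 N2 or N3). With the replicate block 11 rose and 8 fell against OTX015, beside 22.2% of all genes. For EGR1 and FOS the same comparison gave the 0.50 and 0.55 above. In the interaction no gene of the 34 passed with edgeR or DESeq2, beside 0.28% of all genes with edgeR, and 6 had an unadjusted p under 0.05. With the replicate block 6 passed, all positive, beside 6.75% of all genes. EGR1 had -0.50 (SE 0.08) and FOS -0.12 (SE 0.10) in that fit, and the sign depends on the direction of the single-agent differences.

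By number, 15 of the 34 differed between N3 and N1 (11 higher at N3), beside 19.9% of all genes (10.9% and 8.92%), 16 between N3 and N2 (10 higher), beside 27.2% (14.3% and 12.9%), and 5 between N2 and N1 (4 higher), beside 7.12% (3.46% and 3.66%). The N3 libraries had more CYR61 and CTGF, matricellular genes that respond to SRF and YAP. EGR1 was lowest at N3 in the treated groups but not in UNTREATED, where CYR61 and CTGF were also highest at N3. CYR61 was 0.63 log2 higher at N3 than N1 (edgeR adjusted p = 2.16e-13) and CTGF 0.55 (adjusted p = 1.44e-12), beside -0.14 for EGR1. EGR3 shared the order of EGR1 at N3 and N2, with a difference of -0.24 (edgeR adjusted p = 2.69e-05), the same size as that of EGR1.

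Of the 26 list genes with a RefSeq promoter window, 12 held TGACG and 1, EGR2, a CArG box, beside 24.9% and 1.44% of all 27305 genes with a window. With COMBO, TGACG was in 4 of 10 such genes that rose, 3 of 8 that fell and 5 of 8 that did not pass. None of the 10 held a CArG box, of which EGR1 has 2.

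Among 28 listed kinases and factors that act upstream of EGR1 and FOS, 8 were measured, and with COMBO 4 rose and 3 fell, where 57.8% of all genes passed (28.3% rose and 29.6% fell). MKNK1, which encodes the SEL201 target MNK1, rose by 0.51 log2 (edgeR adjusted p = 9.8e-08), and MAPK3, which encodes the kinase ERK1, fell by 0.57 (adjusted p = 1.66e-05). MKL1, an SRF coactivator, rose by 0.44 and CREM, a factor of cyclic AMP response elements, fell by 0.43, while BRAF had -0.06 (edgeR adjusted p = 0.22). Of reported EGR1 corepressors and targets, 3 of 11 were measured: with COMBO the corepressor NAB1 fell by 0.33 (edgeR adjusted p = 1.27e-05), and F3 and PDGFA, at -0.18 and -0.17, did not pass. F3 and PDGFA also fell with the replicate block, by 0.17 and 0.16 (edgeR adjusted p = 0.00653 and 0.0421). Among reported AP-1 targets, MMP9 fell by 4.80 (edgeR adjusted p = 2.53e-08), and MMP1 and HMOX1, at 0.38 and -0.21, did not pass. The replicate block changed both calls: MMP1 rose by 0.36 and HMOX1 fell by 0.20 (edgeR adjusted p = 4.6e-07 and 4.08e-05). Of ERK output genes 2 of 14 were measured, and with COMBO EPHA4 fell by 0.69 (edgeR adjusted p = 3.31e-05) while SPRY1 had 0.14 (adjusted p = 0.39). Of genes that answer to SRF with MRTF or to YAP, 6 of 15 were measured, and with COMBO 3 fell, 0 rose and 3 did not pass, a share of 50% called beside 57.8% of all genes. MYL9, ANKRD1 and LATS2 fell by 2.15, 2.07 and 0.62 (edgeR adjusted p = 1.08e-07, 2.23e-06 and 8.48e-05), while ACTA2, TAGLN and FHL2 had 0.49, -0.25 and 0.07. Under the replicate block ACTA2 rose by 0.47 and TAGLN fell by 0.25 (edgeR adjusted p = 0.00011 and 0.0205), and FHL2 did not pass. Of ATF4 stress genes 4 of 11 were measured, and SESN2 and DDIT3 rose by 0.32 and 0.28 (edgeR adjusted p = 7.75e-05 and 0.0201), while VLDLR at 0.24 passed only with the replicate block (edgeR adjusted p = 0.000972) and CHAC1, at -0.07, with neither. Of a list of 15 factors that act on AU-rich mRNAs such as FOS, which does not hold ZFP36, 1 was measured, CNOT6L, and fell by 0.17 (edgeR adjusted p = 0.0182), where ZFP36 rose by 0.71. No heat shock gene of 11 listed was analysed here.

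Of 14 melanoma markers 7 were measured, with summed mean levels of 347, 301, 338 and 353 CPM in UNTREATED, SEL201, OTX015 and COMBO. Its members moved apart: from UNTREATED to COMBO, mean S100B went from 54.1 to 103 CPM and mean NGFR from 64.9 to 39.1. With SEL201, 1 rose and 2 fell, beside 10.1% and 11.1% of all genes. With OTX015, 1 rose and 2 fell, beside 23.3% and 24.7%, and with COMBO 2 and 2, beside 28.3% and 29.6%. Under the replicate block the SEL201 counts were 2 and 3, beside 37.1% of all genes. Of 14 markers of other cell types 4 were measured (COL1A1, DCN, KRT14 and PDGFRB), none at 0, and their sum was 268, 165, 123 and 95.4 CPM, lowest in COMBO, where EGR1 and FOS were highest. KRT14 alone was 166 of the 268 CPM in UNTREATED, so the sum mostly follows that gene there. In the same order of treatments, 3, 4 and 4 of these 4 markers fell, where 11.1%, 24.7% and 29.6% of all genes fell. PDGFRB with SEL201, at -0.18, passed only with the replicate block (edgeR adjusted p = 0.0364). Their part in the EGR1 and FOS differences was not tested.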

How the data were processed

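Deposited raw counts per gene (1 table, 12 libraries) were used as the authors deposited them. Tools named by the submitters' processing notes, with no role, are STAR 2.5.4b, SAMtools 1.9, FastQC, Trimmomatic, DESeq2 and featureCounts, with build hg19. For annotation, strand setting and filters nothing is given in the sources used here. Its 8579 genes had mean counts of 78.7 to 9159, so column totals of 15146071 to 24111541 cover these genes only and are not the sequencing depth, and a change shared by most genes is removed by the scaling.

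Counts were scaled by TMM, filtered with filterByExpr (which kept all 8579 genes) and fitted with edgeR 4.0.16 (glmQLFit, glmQLFTest) in R 4.3.3, with group means over all 12 libraries and Benjamini-Hochberg adjustment. CPM are TMM-scaled, log2 CPM has a prior count of 2, and SE is the log2 difference over the square root of F. Alternatives were DESeq2 1.42.0, other scalings and filters, the replicate block and leaving out libraries. Steps were tested on simulated counts. Exon lengths are the union of all annotated exons of a gene in GENCODE v29, used for length only since its build differs. Named genes are EGR1, FOS, the 6 nearest genes by Pearson correlation, and list members; BRAF and the target genes are given whatever their p. Some genes within these rules are not reported here. Members and lists were chosen with earlier results of these data known.

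Same-numbered libraries deviated together (correlation 0.26 to 0.57 in 18 pairs, -0.46 to 0.19 in the other 36), so from the data, not the labels, the numbers pair the samples. Blocked values are given where they change the call of a gene whose value is given or move a count by over 1.5 times.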

Additional observations from a re-analysis of the deposited data

Results flagged for a closer look

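With the replicate block, 6 of 34 immediate early genes had an interaction past the threshold, beside 6.75% of all genes. Such a call means that the difference made by SEL201 depended on OTX015. None of the 34 passed without the block, beside 0.28% of all genes. EGR1 and FOS, at -0.50 and -0.12 in the blocked fit, were not tested. The log2 values were 0.44 for JUN, 0.32 for SOCS3, 0.32 for CYR61, 0.24 for FOSL2, 0.21 for DUSP1 and 0.20 for CTGF (edgeR adjusted p = 0.00026, 0.0040, 0.00079, 0.00081, 0.048 and 0.038). All 6 were positive and the values of EGR1 and FOS negative, but the sign depends on the direction of the single-agent differences. FOSL2, JUN, SOCS3 and CYR61 had lower means with each single agent than in UNTREATED. For them a positive value means that COMBO lay less far below UNTREATED than the sum of those differences. EGR1 and FOS were higher with each agent, so their negative values mean less far above. DUSP1 and CTGF had lower means with SEL201 and higher ones with OTX015.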

How the results depend on the processing

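All 364 alternative values of the EGR1 and FOS differences lay within 1 pooled SD of the reported value. None changed sign except where FOS between N2 and N1 reached -0.0077. This SD is that of single libraries within groups, 0.15 log2 for EGR1 and 0.11 for FOS. It is a wide limit that most alternatives could hardly pass, so staying within it says little. It also exceeds some differences between numbers, such as 0.03 and -0.09 for FOS. Over all alternatives the ranges were 1.66 to 1.87 (EGR1, COMBO), 1.63 to 1.74 (FOS, COMBO), -0.61 to -0.39 (EGR1, interaction) and -0.20 to -0.05 (FOS, interaction). Of 182 counts of immediate early list calls, 166 were within 1.5 times of the reported count. The replicate block uses the pairing by number. With it the counts were 19 instead of 11 for SEL201 and 19 instead of 4 for COMBO against OTX015. For the interaction the count was 6 instead of 0. In the same order, the called share of all genes also went up, from 21.2% to 37.1%, from 6.91% to 22.2% and from 0.28% to 6.75%. The block moved no other count of this list between groups by over 1.5 times. In shorter lists it did: with COMBO from 1 to 3 for EGR1 corepressors and targets, 2 to 4 for AP-1 targets and 3 to 5 for SRF and YAP genes, and in other comparisons such as OTX015 (1 to 3 for EGR1 corepressors and targets). The blocked shares of all genes for COMBO and OTX015 against UNTREATED are not given here. DESeq2 gave 7 for COMBO against OTX015. Between N2 and N1 the count was 3 without the SEL201 group and 8 without UNTREATED. Leaving out 1 library or 1 number gave 4 to 12 calls for SEL201, 17 to 23 for OTX015, 20 to 25 for COMBO, 15 to 23 for COMBO against SEL201, 0 to 7 for COMBO against OTX015, 0 for the interaction, 3 to 7 for N2 against N1, 10 to 16 for N3 against N1 and 12 to 17 for N3 against N2. Leaving out single libraries between numbers was chosen after seeing the data. The SEL201 count fell to 7 without SEL201 N1 or UNTREATED N2, to 5 without every N1 library and to 4 without every N2 library. The count for COMBO against OTX015 was 2 without COMBO N1, 1 without OTX015 N1, and 0, 1 and 7 without every N1, N2 or N3 library, and that for N2 against N1 was 3 without SEL201 N1. Of 2406 single-gene values 188 were no longer past the threshold and none reversed. BATF3, EGR3 and FOSB with OTX015 were lost only without every N1 library (edgeR adjusted p = 0.0824, 0.132 and 0.0598). Within-group causes of these shifts were not tested.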
